A study of Homo sapiens with 12 samples.

Results

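The proteasome genes described here are the 49 protein-coding genes whose symbols start with PSMA, PSMB, PSMC, PSMD, PSME, PSMF or PSMG, together with POMP, out of 24559 gene symbols with a count. The same rule takes 51 genes of the GENCODE 44 annotation, and 2 of them, PSMA8 and PSMB11, were not analysed here. All 49 passed the filter on low counts and were among the 16538 genes tested. Polysome-associated RNA, the RNA that sediments with several ribosomes on a sucrose gradient, was sequenced from 3 established human triple-negative breast cancer cell lines in 12 libraries that make up 6 groups of 2. MDA-MB-231 and SUM159 cells carried either a control vector (EV) or a lentiviral shRNA against TRMT112 (KD), the methyltransferase cofactor under study, and were selected with puromycin. BT549 cells carried either the empty expression vector (EV) or a TRMT112 open reading frame (OE) and were selected with G418. The labels call the controls of all 3 lines EV, whereas the study's methods give a non-silencing shRNA for the KD lines. All 6 groups were exposed briefly to cycloheximide before lysis, which holds ribosomes on the mRNA.

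The proteasome degrades proteins that carry ubiquitin chains. Its barrel-shaped 20S core is built from outer rings of PSMA (alpha) subunits and inner rings of PSMB (beta) subunits, of which PSMB5, PSMB6 and PSMB7 carry the active sites, and the 19S cap of PSMC ATPases and PSMD subunits binds, unfolds and feeds in the substrate. Interferon-gamma induces PSMB8, PSMB9 and PSMB10, which replace PSMB5, PSMB6 and PSMB7 during assembly and give the immunoproteasome, and PSME1 and PSME2, which form the PA28 activator ring. The immunoproteasome is known for supplying peptides that TAP1 and TAP2 carry into the endoplasmic reticulum for loading onto MHC class I.

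The 5 immunoproteasome genes lie in 3 places of the genome (GRCh38, GENCODE 44). PSMB8 is at chr6:32840717-32844679 on the minus strand and PSMB9 at chr6:32844136-32859851 on the plus strand, inside the MHC class II region. TAP1 lies at chr6:32845209-32853816 on the minus strand, inside the annotated span of PSMB9. PSME1 at chr14:24136163-24138967 on the plus strand and PSME2 at chr14:24143362-24147570 on the minus strand are close neighbours, and PSMB10 is at chr16:67934506-67936864 on the minus strand. Counts of PSMB8 and PSMB9 can share reads where their spans overlap, since the sources used here disagree on whether the libraries keep strand.

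Promoter sequences are shown for these genes because the group is the classical interferon-induced set of the proteasome. RefSeq start-site windows (GRCh38.p14, 250 bases before to 50 after the start) were found for 43 of the 49 members and searched on both strands for the core of the interferon-stimulated response element, GAAANNGAAA. The core was in 3.57% of all 35116 windows and in windows of 4.38% of all genes. It was in a window of 4 of the 5 immunoproteasome genes, and of 3 other members, PSMA4, PSMB4 and PSMG4. The stretches below are written 5′ to 3′ on the strand of the gene, with every base of a match in capitals.

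PSMB8, chr6:32844032-32844061: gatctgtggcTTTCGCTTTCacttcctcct
PSMB10, chr16:67936852-67936881: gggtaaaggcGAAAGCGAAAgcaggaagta
PSME1, chr14:24136189-24136218: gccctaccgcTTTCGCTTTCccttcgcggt
PSME2, chr14:24146619-24146648: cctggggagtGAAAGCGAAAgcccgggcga
TAP1, chr6:32853816-32853845: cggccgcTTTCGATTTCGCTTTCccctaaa

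The match has the same 10 letters in all 4 proteasome genes, read in the gene's direction in PSMB10 and PSME2 and on the other strand in PSMB8 and PSME1. It begins 28 bases before the start in PSME2, 21 before it in PSMB10 and 5 after it in PSME1. In PSMB8 it begins 4 bases before the downstream RefSeq start, and the window of the upstream start, chr6:32844630-32844929, held no match. The window of PSMB9 held no match. The neighbouring gene TAP1, which is transcribed away from PSMB9, holds 2 overlapping matches, and they end 354 bases before the RefSeq start of PSMB9, outside its window. The gamma-activated site, TTCNNNGAA, was in a window of PSMB8 and of 6 other members with a window, against 9.38% of all genes. The core of the antioxidant response element, TGANNNNGC, was in a window of 27 of the 43 members and of 47.1% of all genes. A match is a description of letters and was not tested as a binding site.

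Total expected counts ranged from 22954226 to 27434677 per library. TRMT112 itself was at 173 and 165 CPM (counts scaled to library size with TMM factors) in MDA-MB-231 EV and at 73.8 and 70.4 in KD, at 265 and 275 in SUM159 EV and at 163 and 155 in KD, and at 129 and 129 in BT549 EV and at 179 and 181 in OE. Each change had the direction of its label, with log2 fold changes of -1.23, -0.76 and 0.48. Nothing in the labels says that the libraries of a group came from separate cultures, so p-values measure only the spread between these libraries. Of the markers chosen for these lines, VIM and CD44 were present in every group but fell in level in BT549, from 1665 to 597 and from 440.3 to 246 TPM (a share of all transcripts, corrected for length), while KRT8 and KRT18 were near 0 in BT549, at 0.517 and 0.294 TPM in EV. Of the markers chosen as low, PGR was at or near 0 and ERBB2 was at group means of 27.3 to 54.4 TPM. No gene had a row here unless some BT549 library counted it.

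The members differed widely in level on polysomes. On the TPM scale, which allows levels of different genes to be set side by side, the 49 members summed to between 11004 TPM in SUM159 KD and 16112 TPM in BT549 EV. The highest member was PSMB6 in MDA-MB-231, PSMA7 in SUM159 and in BT549 OE, and PSMB7 in BT549 EV. PSME4, the large nuclear activator, was the lowest member in all 6 groups, from 5.17 TPM in BT549 EV to 19.04 TPM in SUM159 EV. The lowest subunit of the 19S cap was PSMD1, its large scaffold, from 13.6 to 27.4 TPM, while PSMD8 was the highest non-ATPase subunit in every group.

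Among the control groups, the immunoproteasome sums were lowest in MDA-MB-231 and highest in BT549. On the TPM scale the sum of PSMB8, PSMB9 and PSMB10 reached 219 and 229 in MDA-MB-231 EV, 603 and 597 in SUM159 EV and 859 and 864 in BT549 EV. The sum of PSME1 and PSME2 was 605 and 613, 919 and 923, and 1664 and 1671 in the same order. The 7 constitutive beta subunits, by contrast, were lowest in SUM159 EV, at 2787 ± 40.0 TPM (SD, n = 2), against 3961 ± 24.5 in MDA-MB-231 EV and 4912 ± 9.67 in BT549 EV. PSMB9 stood farthest apart: in CPM it was 21.7 and 21.5 in MDA-MB-231 EV, 161 and 162 in SUM159 EV and 217 and 208 in BT549 EV. MDA-MB-231 was below both other lines in this gene, and no libraries overlapped. How many of all genes show no overlap between lines was not counted.

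Compared with MDA-MB-231 EV, all 5 immunoproteasome genes were higher in BT549 EV (edgeR quasi-likelihood test, Benjamini-Hochberg adjusted p under 0.05), with log2 differences from 0.98 for PSMB10 to 3.30 for PSMB9. Of all 49 members, 30 were higher and 17 lower in that comparison, against 39.1% and 40.4% of all genes tested. Against SUM159 EV the 5 genes were again higher in BT549 EV, by 0.40 to 1.21 on the log2 scale, and 29 members were higher and 14 lower, against 37.7% and 40.7% of all genes. SUM159 EV exceeded MDA-MB-231 EV in 4 of the 5, and PSMB10 did not pass the test (log2 difference 0.02 ± 0.07, SE, with a 95% interval from -0.12 to 0.16). Here 24 members were higher and 19 lower, against 39.2% and 36.4% of all genes. The lines were grown in different media and the BT549 control vector is not that of the KD lines, so line, medium and vector cannot be told apart. Scaling by library size alone moved the median of all genes from -0.03 to -0.34 against MDA-MB-231 EV and from -0.06 to -0.27 against SUM159 EV on the log2 scale, and the 5 genes were still higher in BT549 EV, by 0.67 to 2.99 and by 0.19 to 0.99. These comparisons share their EV libraries with those below.

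With TRMT112 knockdown in MDA-MB-231 the 5 immunoproteasome genes rose modestly. PSMB8 was at 65.7 and 71.5 CPM in EV and 83.3 and 84.1 in KD. PSMB9 was at 21.7 and 21.5 in EV and 25.7 and 25.9 in KD. PSMB10 was at 27.8 and 27.5 in EV and 43.4 and 44.2 in KD, the largest change of the group. The PA28 subunits went from 121 and 121 to 159 and 159.7 CPM for PSME1 and from 138 and 141 to 183 and 185 for PSME2. Both KD libraries were above both EV libraries for all 5 genes, though the share of all genes without overlap was not counted. The log2 fold changes were 0.29 ± 0.05 for PSMB8, 0.26 ± 0.06 for PSMB9, 0.66 ± 0.06 for PSMB10, 0.39 ± 0.03 for PSME1 and 0.40 ± 0.03 for PSME2 (SE, n = 2 per group), and all passed the test.

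In SUM159 the same 5 genes fell with knockdown. PSMB8 was at 169.6 and 168 CPM in EV and 102 and 97.7 in KD. PSMB9 went from 161 and 162 to 97.4 and 97.9, and PSMB10 from 27.8 and 28.4 to 17.7 and 16.4. PSME1 was at 210.1 and 213 CPM in EV and 148 and 143 in KD, and PSME2 at 237 and 242 in EV and 169.8 and 176 in KD. All KD libraries were below all EV libraries for these genes, and here too the share of all genes without overlap was not counted. The log2 fold changes were -0.76 ± 0.05, -0.72 ± 0.04, -0.73 ± 0.07, -0.54 ± 0.03 and -0.47 ± 0.03 in the order of the genes above.

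TRMT112 overexpression in BT549 went with the largest changes, all downward. PSMB8 fell from 321 and 328 CPM in EV to 32.0 and 27.3 in OE, a 10.9-fold difference. PSMB9 fell from 217 and 208 to 13.99 and 13.1 CPM, or 15.7-fold. PSMB10 was at 54.1 and 55.3 in EV and 22.2 and 19.9 in OE. OE left PSMB8, PSMB9 and PSME1 below their level in every other group, while PSMB10 in OE was above both SUM159 KD libraries (17.7 and 16.4) and PSME2 in OE was above both MDA-MB-231 EV libraries (138 and 141). PSME1 fell from 371 and 365 to 78.6 and 76.7 CPM, and PSME2 from 551 and 554 to 178 and 173. The log2 fold changes were -3.45 ± 0.05, -3.97 ± 0.05, -1.38 ± 0.07, -2.24 ± 0.04 and -1.66 ± 0.03 for PSMB8, PSMB9, PSMB10, PSME1 and PSME2. The 5 genes were thus lower both with TRMT112 knockdown in SUM159 and with TRMT112 overexpression in BT549.

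**Figure D1:**
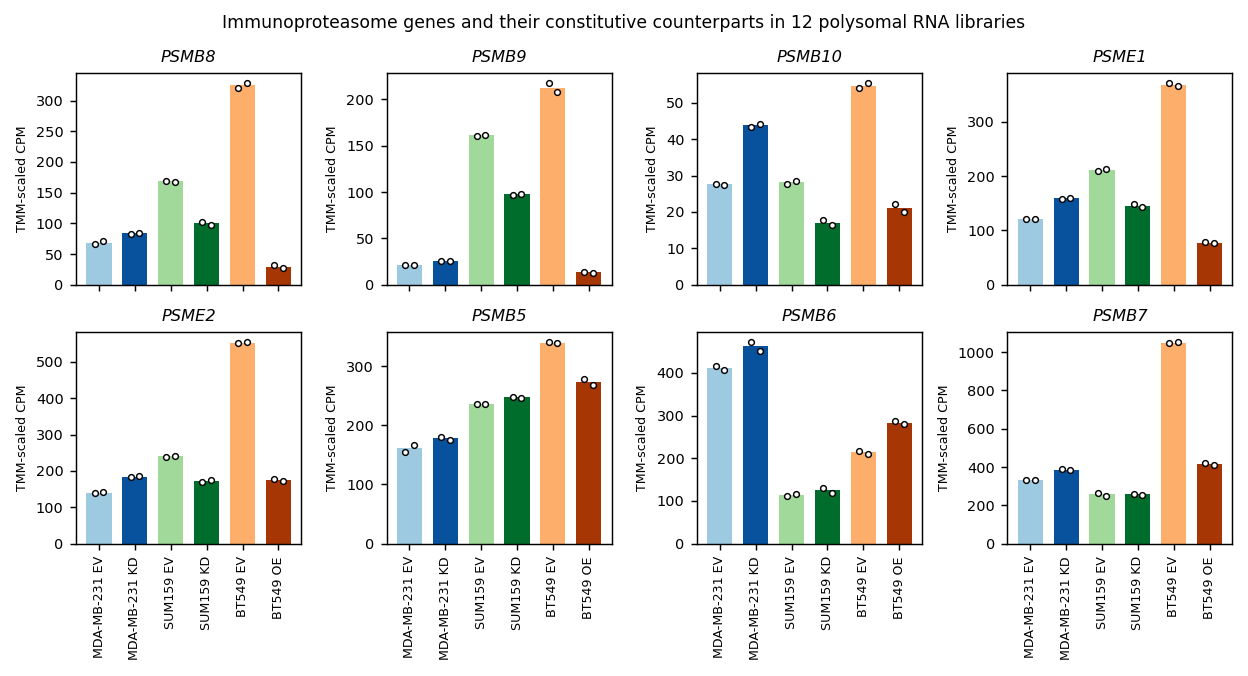
TMM-scaled CPM of the 5 immunoproteasome genes and of PSMB5, PSMB6 and PSMB7 in the 6 groups; bars are means, circles the 2 libraries of each group, and each panel has its own axis from 0. PSMB8 and PSMB9 sit at 321 and 328 and at 217 and 208 CPM in BT549 EV and at 32.0 and 27.3 and at 13.99 and 13.1 CPM in BT549 OE, while PSMB5 stays between 268 and 341 CPM in that line.

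Markers of other cell types were read beside these values, because leukocytes carry high immunoproteasome levels. Of 11 leukocyte markers, 5 had a row, and their summed level ranged from 0.452 to 1.61 TPM in the MDA-MB-231, SUM159 and BT549 EV libraries and from 4.05 to 4.17 TPM in BT549 OE, where CD14 made up 3.85 TPM. PTPRC, the defining leukocyte marker, was at or near 0 in every group. Of the 4 fibroblast markers all had a row, and their sum was 25.4 and 26.1 TPM in BT549 EV against 634 and 635 in BT549 OE, nearly all of it COL1A1 (625 TPM), with DCN at 7.59 and LUM at 1.99 TPM in OE and both at 0 in EV. In SUM159 the fibroblast sum ranged from 114 to 115 TPM in EV and from 126 to 128 in KD, and in MDA-MB-231 from 5.61 to 7.05 in EV and from 12.01 to 15.2 in KD. The part of these differences in the proteasome results was not tested. Polysomal RNA of bulk cultures cannot tell fewer cells that express a gene from less RNA per cell, nor less mRNA from lower ribosome loading.

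PSMB5, PSMB6 and PSMB7, the constitutive subunits that the inducible ones replace, rose with them in MDA-MB-231, while in SUM159 none of the 3 fell and in BT549 PSMB5 and PSMB7 fell and PSMB6 rose. PSMB5, the chymotrypsin-like subunit displaced by PSMB8, was at 155 and 167 CPM in MDA-MB-231 EV and 179.9 and 176 in KD (log2 fold change 0.14 ± 0.04). In SUM159 it was at 236 and 237 in EV and 247 and 247 in KD, a difference of 0.07 ± 0.03 that did not pass the test but passed as a rise under 4 of 13 alternatives (0.09 to 0.12), and in BT549 it fell from 341 and 339 to 278 and 268 (-0.32 ± 0.03). PSMB6, the caspase-like subunit displaced by PSMB9, rose in all 3 comparisons, from 416 and 406 to 472 and 452 CPM in MDA-MB-231, from 110.3 and 115 to 131 and 119 in SUM159 and from 217 and 211 to 286 and 280.4 in BT549 OE. Its BT549 change was 0.41 ± 0.04 against -3.97 for PSMB9. PSMB7, the trypsin-like subunit displaced by PSMB10, was at 1047 and 1053 CPM in BT549 EV and at 421 and 408 in OE, a log2 fold change of -1.34 ± 0.03 that was near that of PSMB10. In MDA-MB-231 it rose from 335 and 330.4 to 389 and 382 CPM, and in SUM159 it was at 264 and 250.5 in EV and 260.2 and 253 in KD, where the log2 difference had a 95% interval from -0.07 to 0.06. Without EV replicate 1 the PSMB5 change in MDA-MB-231 was 0.08 (adjusted p = 0.128, edgeR), and with scaling by library size alone it was 0.05 (adjusted p = 0.279, edgeR), where that of PSMB6 was 0.08 (adjusted p = 0.0673, edgeR). The SUM159 change of PSMB6 was 0.11 without EV replicate 1 (adjusted p = 0.0878, edgeR) and 0.08 without KD replicate 1 (adjusted p = 0.17, edgeR).

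The share of the inducible subunit in the summed TPM of each pair put these changes on 1 scale. PSMB8 made up 46.4% and 47.0% of its pair with PSMB5 in the BT549 EV libraries and 9.45% and 8.40% in OE. It made up 39.4% and 39.0% in SUM159 EV against 27.2% and 26.3% in KD, and 27.5% and 27.6% in MDA-MB-231 EV against 29.5% and 30.2% in KD. PSMB9 made up 54.1% and 53.2% of its pair with PSMB6 in SUM159 EV, 37.6% and 40.0% in SUM159 KD, 44.6% and 44.3% in BT549 EV and 3.78% and 3.63% in BT549 OE. In MDA-MB-231 its share was 4.08% and 4.11% (EV) against 4.21% and 4.43% (KD). SUM159 EV and BT549 EV thus had PSMB9 near the level of PSMB6, and MDA-MB-231 did not. With 2 libraries a group, an exact permutation test of such a share cannot give a p-value below 0.333, so no p is given for these shares.

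PSMB10 had a small share of its pair with PSMB7 in every group. It was 7.75% and 7.85% in MDA-MB-231 EV and 10.1% and 10.4% in KD, and 9.82% and 10.7% in SUM159 EV and 6.56% and 6.68% in KD. In BT549 its share was 4.92% and 5.02% (EV) against 5.78% and 5.43% (OE), so the mean was 0.63 percentage points higher in OE although PSMB10 itself had fallen. That direction depended on which transcripts were summed. With protein-coding transcripts alone the share went from 4.88% and 4.95% in EV to 3.51% and 3.29% in OE, 1.51 points lower, and with plain counts the change was -0.13 points.

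**Figure D2:**
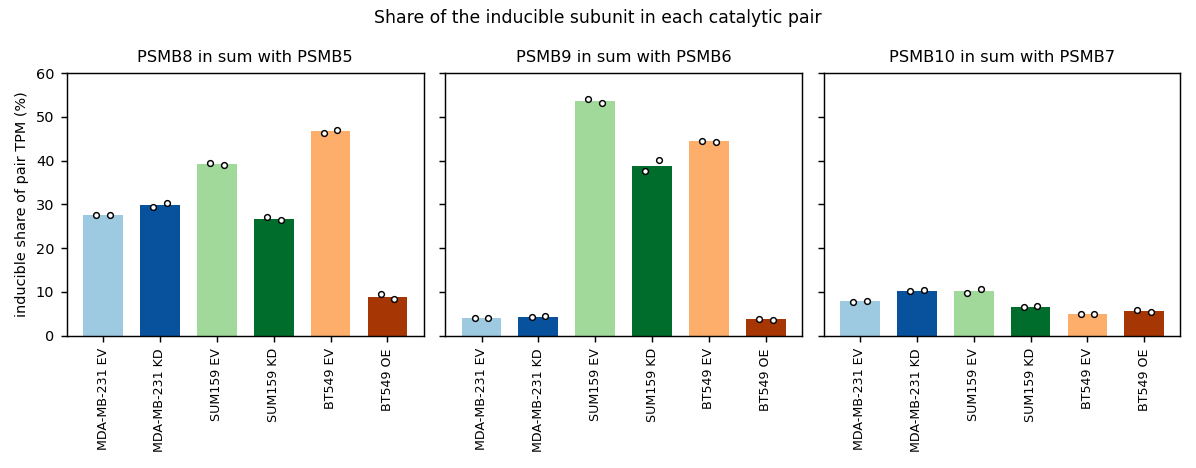
Percent of the summed TPM of each catalytic pair that came from the inducible subunit (PSMB8 with PSMB5, PSMB9 with PSMB6, PSMB10 with PSMB7); bars are group means and circles the 2 libraries. In BT549 the share of PSMB8 went from 46.7% to 8.92% and that of PSMB9 from 44.5% to 3.70%, while that of PSMB10 was 4.97% and 5.60%.

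The transcripts of PSMB10 changed in proportion. PSMB10-201, the protein-coding transcript, held 97.8% and 97.6% of the PSMB10 counts in the BT549 EV libraries and 68.6% and 69.1% in OE. PSMB10-203, annotated as a retained intron, went from 0.651% and 0.500% in EV to 24.8% and 26.9% in OE. In MDA-MB-231 the retained-intron transcript held between 0.365% and 2.86%, and in SUM159 between 4.23% and 15.4%, with the highest value in KD replicate 2. With protein-coding transcripts alone, the BT549 change of PSMB10 was -1.84 ± 0.09 on the log2 scale, against -1.38 with all transcripts. Transcript shares rest on how the authors' counting divided reads between overlapping transcripts, and that step was not checked. For PSMB8 the main transcript was PSMB8-202 in every group, at 76.4% to 92.0% of the counts (group means), and PSMB8-201 held most of the rest.

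**Figure D3:**
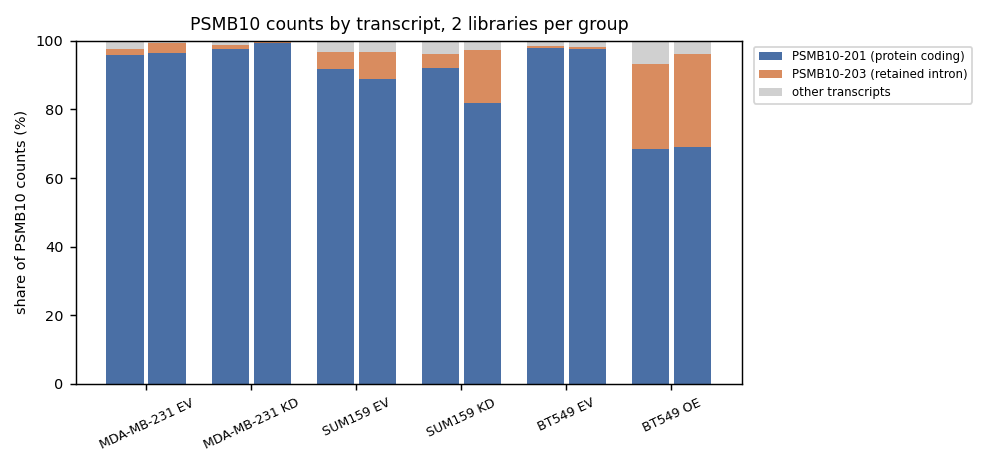
Share of the PSMB10 counts of each library held by the protein-coding transcript PSMB10-201, the retained-intron transcript PSMB10-203 and all others, with 2 bars per group for the 2 libraries. PSMB10-203 is at 24.8% and 26.9% in BT549 OE and at 0.651% and 0.500% in BT549 EV.

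Over all 49 members, more genes rose than fell with knockdown in MDA-MB-231 and more fell than rose in SUM159. In MDA-MB-231, 31 members rose, 9 fell and 9 did not pass the test, against 21.2% of all genes tested that rose and 16.5% that fell. The median log2 fold change of the members was 0.15, against 0.00 over all genes, and no member changed by as much as 1 on the log2 scale. Without the TMM step, with library size alone, the median of all genes was -0.08 and 20 members rose and 12 fell. The count of members that fell was 4 without EV replicate 2, 4 without KD replicate 1 and 5 without KD replicate 2. In SUM159, 10 members rose, 34 fell and 5 did not pass, against 28.6% and 31.4% of all genes, and the median was -0.34 against 0.00 over all genes. In BT549, 16 members rose and 28 fell with overexpression, against 35.6% and 35.0% of all genes, with a median of -0.26 against 0.02. The groups of libraries did not overlap for any member that passed the test in any of these comparisons. That adds no support, since these members were picked by the test, and the share of all genes without overlap was not counted.

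**Figure D4:**
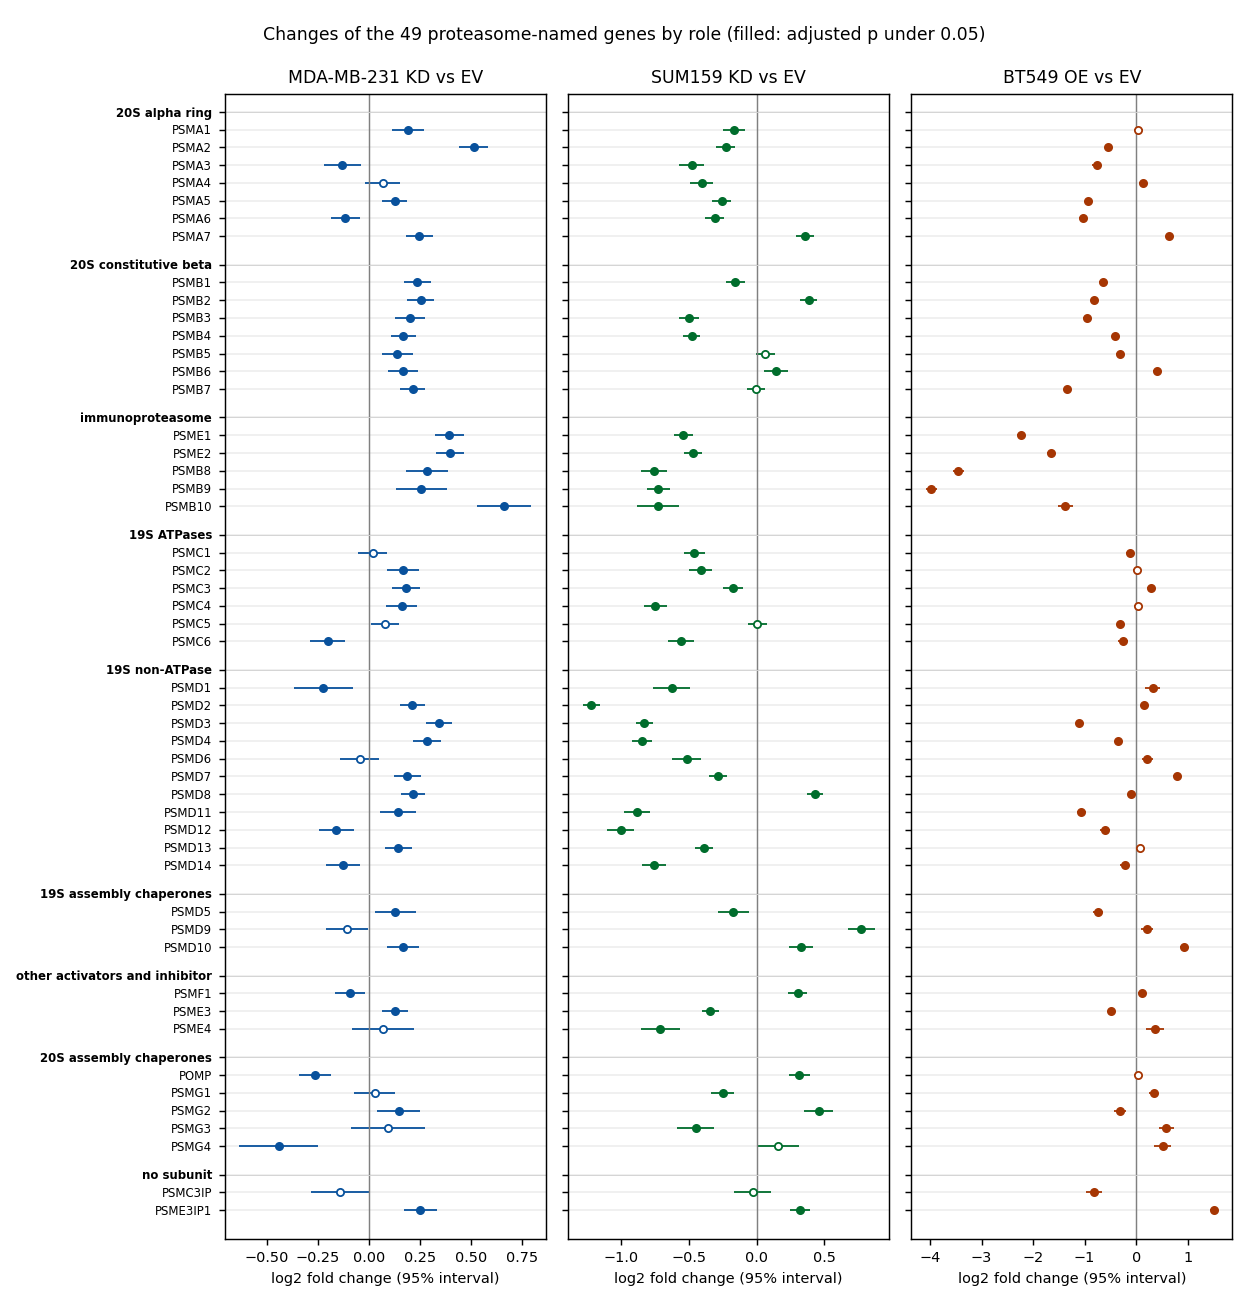
Log2 fold change of each of the 49 members with its 95% interval, by role, for KD against EV in MDA-MB-231 and SUM159 and OE against EV in BT549; filled points passed the test, and each panel has its own scale. In BT549 the 5 immunoproteasome genes lie between -3.97 and -1.38, and the other members lie between -1.34 and 1.51.

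The alpha ring moved by small steps in MDA-MB-231 and mostly downward in the other lines. PSMA2 had the largest rise in MDA-MB-231, from 139.7 and 145 CPM in EV to 204 and 202 in KD (0.51 ± 0.03), and it fell in SUM159 (-0.23 ± 0.03) and in BT549 OE (-0.54 ± 0.03). PSMA7 was the exception that rose in all 3 comparisons: it went from 401 and 381 to 469 and 458 CPM in MDA-MB-231, from 676 and 658 to 881 and 829 in SUM159 and from 611 and 608 to 964 and 936 in BT549. The changes of PSMA7 were 0.25, 0.36 and 0.64 on the log2 scale. PSMA3 and PSMA6 fell in all 3 comparisons. PSMA6 was at 333 and 339 CPM in BT549 EV and at 163 and 166 in OE (-1.03 ± 0.04), but its change in MDA-MB-231 was -0.12 ± 0.03 and did not pass without EV replicate 2 or KD replicate 1. The fall of PSMA3 in MDA-MB-231 (-0.13 ± 0.04) did not pass without EV replicate 2, KD replicate 1 or KD replicate 2. It also did not pass with DESeq2 or with RLE size factors in place of TMM. PSMA5 fell in BT549 as well, from 358 and 355 to 185 and 189 CPM. PSMA4 fell in SUM159 (-0.41 ± 0.04) and had a small rise in BT549 (0.13 ± 0.04) that did not pass without EV replicate 1 or OE replicate 2. Among the 7 alpha genes, 4 rose and 2 fell in MDA-MB-231, 1 rose and 6 fell in SUM159, and 2 rose and 4 fell in BT549. The shares of all genes that rose and fell were 21.2% and 16.5%, 28.6% and 31.4%, and 35.6% and 35.0% in the same order. The counts were not tested against these shares.

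All 7 constitutive beta genes rose in MDA-MB-231 KD, by 0.14 to 0.25 on the log2 scale, against 21.2% of all genes tested. PSMB1 and PSMB2 had the largest steps, 0.24 ± 0.03 and 0.25 ± 0.03. In SUM159, PSMB2 rose from 285 and 292 to 368 and 385 CPM (0.38 ± 0.03), while PSMB3 and PSMB4, which line the inner ring without an active site, fell by 0.50 and 0.48 on the log2 scale. In BT549 OE, 6 of the 7 fell, against 35.0% of all genes tested. PSMB3 went from 325 and 321 to 174 and 160.0 CPM (-0.95 ± 0.04) and PSMB2 from 597 and 595 to 341 and 334 (-0.82 ± 0.03), leaving PSMB6 as the only beta gene that rose. The summed level of the 7 genes was 4905 and 4919 TPM in BT549 EV and 3077 and 3078 in OE, and that of the 7 alpha genes went from 3127 and 3177 in EV to 3042 and 3105 in OE. PSMB7 alone held 1689 TPM of the EV beta sum and 661 of the OE sum.

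In the 19S cap, the knockdown effect was higher in MDA-MB-231 than in SUM159 for 15 of 17 subunits by the test of the difference. Among all genes tested, 27.7% passed it with the higher effect in MDA-MB-231 and 23.2% with the higher effect in SUM159. PSMD2, a scaffold of the base of the cap that docks ubiquitin-chain receptors, was at 562 and 552 CPM in MDA-MB-231 EV and 649 and 643 in KD. In SUM159 it was at 421 and 417 in EV and only 185 and 176 in KD, the largest fall of any member with knockdown (-1.22 ± 0.03). PSMD12, a structural subunit of the lid, fell in SUM159 from 92.8 and 97.4 to 46.3 and 48.6 CPM (-1.00 ± 0.05). These were the members that changed by at least 1 on the log2 scale there. PSMD3 and PSMD4, a lid subunit and a ubiquitin receptor, had the largest rises of the non-ATPase subunits in MDA-MB-231, 0.34 ± 0.03 and 0.29 ± 0.03, and both fell in SUM159, PSMD3 from 341 and 351 to 195 and 195 CPM and PSMD4 from 192 and 196 to 109 and 107. PSMD8 was the non-ATPase subunit that rose in SUM159, from 459.6 and 474 to 639 and 618 CPM. PSMD1 and PSMD12 had the largest falls of the non-ATPase subunits in MDA-MB-231, -0.22 ± 0.07 and -0.16 ± 0.04. The PSMD1 fall was lost without EV replicate 2, KD replicate 1 or KD replicate 2, or with protein-coding transcripts alone.

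Of the 17 cap subunits, 10 rose and 4 fell in MDA-MB-231, 1 rose and 15 fell in SUM159, and 5 rose and 9 fell in BT549, with medians of 0.14, -0.56 and -0.10 on the log2 scale. The shares of all genes that rose and fell were 21.2% and 16.5%, 28.6% and 31.4%, and 35.6% and 35.0%, so the cap's falls in MDA-MB-231 and rises in BT549 were near the background. PSMC genes encode the ATPases that unfold the substrate. PSMC4 had the largest change among them, from 172 and 163 CPM in SUM159 EV to 103 and 96.7 in KD (-0.75 ± 0.04), and PSMC6 fell in all 3 comparisons (-0.20, -0.56 and -0.26). In MDA-MB-231, PSMC2 and PSMC3 rose by 0.17 and 0.18 on the log2 scale (the PSMC2 rise did not pass with library size alone or with protein-coding transcripts alone), and in BT549 PSMC3 rose (0.28 ± 0.03) and PSMC5 fell (-0.31 ± 0.03). Overexpression lowered PSMD3 from 478 and 476 to 222 and 222 CPM and PSMD11, a lid subunit, from 299 and 298 to 135 and 149.5. It raised PSMD7, the partner of the deubiquitinase PSMD14, from 202 and 202 to 351 and 345 CPM (0.78 ± 0.03), and PSMD1 (0.32 ± 0.07). PSMD14 itself fell in all 3 comparisons, by 0.13, 0.76 and 0.23 on the log2 scale. The MDA-MB-231 fall of PSMD14 did not pass with DESeq2, or without EV replicate 2, KD replicate 1 or KD replicate 2. PSMD12 also fell in all 3, with -0.61 ± 0.05 in BT549.

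Of the 5 assembly factors of the 20S core, 1 rose and 2 fell in MDA-MB-231, 2 rose and 2 fell in SUM159, and 3 rose and 1 fell in BT549. The shares of all genes that rose and fell were 21.2% and 16.5%, 28.6% and 31.4%, and 35.6% and 35.0%. With so few genes the counts are a description only. POMP, the chaperone that guides the beta ring onto the alpha ring, was at 178 and 189 CPM in MDA-MB-231 EV and 156 and 149.7 in KD. In SUM159 it rose from 184 and 177 to 219.7 and 228, and in BT549 it was at 263 and 265 in EV and 266 and 274 in OE, a difference that did not pass the test. The knockdown effects on POMP therefore ran opposite to those on the immunoproteasome genes, -0.26 ± 0.04 in MDA-MB-231 and 0.31 ± 0.04 in SUM159. PSMG1 to PSMG4 assist the alpha ring. PSMG4 fell in MDA-MB-231 from 14.5 and 13.3 to 9.80 and 10.7 CPM and rose in BT549 from 21.4 and 22.6 to 31.6 and 31.2, and PSMG3 rose in BT549 from 33.2 and 33.4 to 50.3 and 49.6. In SUM159 PSMG3 fell (-0.45 ± 0.07), PSMG1 fell (-0.25 ± 0.04) and PSMG2 rose (0.46 ± 0.05). PSMG2 also rose in MDA-MB-231 (0.15 ± 0.05, not passing without EV replicate 1 or KD replicate 2) and fell in BT549 (-0.31 ± 0.06).

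The chaperones of the 19S base gave the largest rise with knockdown in SUM159. PSMD9 went from 96.1 and 99.3 CPM in EV to 174 and 160.1 in KD (0.77 ± 0.05), and PSMD10, known as gankyrin, rose in all 3 comparisons, in BT549 from 106 and 109 to 202 and 208 CPM (0.92 ± 0.04). The MDA-MB-231 rise of PSMD10 did not pass with library size alone. PSMD5 fell in BT549, from 102 and 105 to 60.9 and 62.7 CPM, and its smaller changes in the KD lines, 0.13 ± 0.05 and -0.17 ± 0.06, did not pass in several of the fits without 1 library. The BT549 rise of PSMD9 (0.21 ± 0.05) turned into a fall of -0.28 ± 0.10 when protein-coding transcripts alone were summed (adjusted p = 0.0139, edgeR). Protein-coding transcripts held 59.6% of the PSMD9 counts in BT549 EV and 41.1% in OE, and the leading transcript, PSMD9-204, is annotated as a target of nonsense-mediated decay.

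Of the remaining activators and the inhibitor, 1 rose and 1 fell in MDA-MB-231, 1 rose and 2 fell in SUM159, and 2 rose and 1 fell in BT549. The shares of all genes that rose and fell were 21.2% and 16.5%, 28.6% and 31.4%, and 35.6% and 35.0%, and these few genes are described one by one. PSME3, the nuclear PA28 subunit that is not induced by interferon, rose by 0.13 ± 0.03 in MDA-MB-231 and fell by 0.34 in SUM159 and by 0.49 in BT549 on the log2 scale. PSME4 fell in SUM159 from 50.1 and 52.8 to 31.2 and 31.8 CPM and rose in BT549 (0.36 ± 0.08), where protein-coding transcripts alone gave 0.22 ± 0.19 and no call (adjusted p = 0.286, edgeR). PSMF1, an inhibitor of the 20S core, rose in SUM159 from 288 and 285 to 349 and 357 CPM. It had small changes elsewhere, -0.09 ± 0.03 in MDA-MB-231 and 0.11 ± 0.04 in BT549, each lost without 1 library or more. The MDA-MB-231 change was also lost with DESeq2, with RLE size factors and with the filter left off. PSMC3IP and PSME3IP1 match the rule by name and are not proteasome subunits: PSMC3IP acts in homologous recombination and PSME3IP1 binds PSME3. PSME3IP1 had the largest rise of all members, from 98.1 and 102 CPM in BT549 EV to 283 and 285 in OE (1.51 ± 0.04), and it also rose in both KD lines. PSMC3IP fell in BT549 from 30.2 and 32.7 to 18.2 and 17.4 CPM.

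The difference between the knockdown effects was tested in the same model. It passed for 44 of the 49 members, 35 of them with the higher effect in MDA-MB-231 and 9 with the higher effect in SUM159, against 27.7% and 23.2% of all genes tested. All 5 immunoproteasome genes were among the 35, with differences of 1.04 ± 0.07 for PSMB8, 0.98 ± 0.07 for PSMB9, 1.39 ± 0.10 for PSMB10, 0.93 ± 0.05 for PSME1 and 0.87 ± 0.05 for PSME2 on the log2 scale. A rise in MDA-MB-231 with a fall in SUM159 was seen in 22 members. The share of all genes with this pattern was not counted. Taken singly, 21.2% of all genes tested rose in MDA-MB-231 and 31.4% fell in SUM159. The difference passed for all 22, which adds no support, since they were picked by opposite calls in the same fit. With library size alone 15 of the 22 kept the rise in MDA-MB-231, and PSMA5, PSMC2, PSMC4, PSMD11, PSMD13, PSMD5 and PSME3 did not. The MDA-MB-231 rise of PSMD11 also did not pass without EV replicate 1, without KD replicate 2 or with protein-coding transcripts alone. The 6 largest of these differences were in PSMD2 (1.43 ± 0.04), PSMB10, PSMD3 (1.17 ± 0.04), PSMD4 (1.13 ± 0.05), PSMB8 and PSMD11 (1.02 ± 0.06). The reverse pattern was seen in PSMF1 and POMP, and the MDA-MB-231 fall of PSMF1 did not pass with DESeq2. Members that moved alike in both KD lines were 7 that rose (PSMA7, PSMB2, PSMB6, PSMD8, PSMD10, PSMG2 and PSME3IP1) and 6 that fell (PSMA3, PSMA6, PSMC6, PSMD1, PSMD12 and PSMD14). The shares of all genes that moved alike were not counted either. The MDA-MB-231 rises of PSMB6, PSMD10 and PSMG2 did not pass with library size alone. The MDA-MB-231 falls of PSMA3, PSMA6, PSMD1 and PSMD14 did not pass without EV replicate 2 or without KD replicate 1. Those of PSMA3 and PSMD14 also did not pass with DESeq2. Of these 13, only PSMB2, PSMD8, PSMG2 and PSMD1 moved the other way with overexpression in BT549, and the BT549 change of PSMD8 did not pass with protein-coding transcripts alone.

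**Figure D5:**
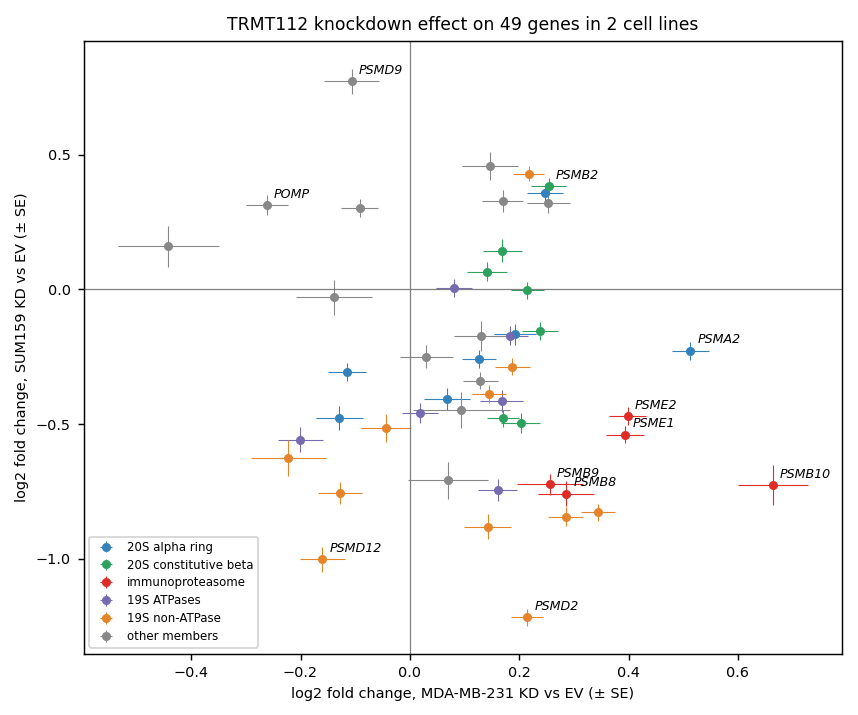
Log2 fold change of the 49 members with TRMT112 knockdown in MDA-MB-231 (x axis) and SUM159 (y axis), coloured by role, with bars of 1 SE. The 5 immunoproteasome genes lie between 0.26 and 0.66 on the x axis and between -0.76 and -0.47 on the y axis. In all, 22 members rose in MDA-MB-231 and fell in SUM159, and the share of all genes that did so was not counted.

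The size of the changes set the immunoproteasome apart from the other members in BT549 more than in the KD lines. There the 5 genes had a median of -2.24 on the log2 scale, while the 14 genes of the constitutive core had -0.60 and the 17 of the cap -0.10. In SUM159 the median was -0.72 for the 5 genes, -0.20 for the core and -0.56 for the cap, and PSMD2, PSMD3, PSMD4, PSMD11 and PSMD12 fell further than PSMB8. In MDA-MB-231 it was 0.39 for the 5 genes, 0.18 for the core and 0.14 for the cap. These medians are descriptions of the lists, and whether the lists differ from one another was not tested.

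Genes that supply or induce the immunoproteasome were read from lists of their own. TAP1 fell in BT549 from 986 and 947 CPM in EV to 38.1 and 38.9 in OE, a log2 fold change of -4.65 ± 0.04, and TAP2 from 295 and 299.9 to 78.6 and 68.9. TAP1 rose in MDA-MB-231 (0.41 ± 0.04) and fell in SUM159 (-0.76 ± 0.04). Of the 5 genes of peptide transport and trimming (TAP1, TAP2, TAPBP, ERAP1 and ERAP2), 4 rose and none fell in MDA-MB-231, and all 5 fell in SUM159 and in BT549. The shares of all genes tested that rose and fell were 21.2% and 16.5% in MDA-MB-231, 28.6% and 31.4% in SUM159, and 35.6% and 35.0% in BT549. The TAP2 change in MDA-MB-231 was 0.05 ± 0.05. ERAP2 was low in BT549, at 3.89 and 1.44 CPM in EV and 0.880 and 0.521 in OE. In MDA-MB-231 the rises of ERAP1 and ERAP2 were also at low levels. ERAP1 was there at 4.25 and 4.58 CPM in EV and 7.48 and 6.09 in KD, and ERAP2 at 2.36 and 1.95 in EV and 3.96 and 3.55 in KD.

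The transcription factors and receptors of interferon signaling gave a less uniform picture with knockdown. IRF1 moved with the 5 genes in each line: it rose in MDA-MB-231 (0.45 ± 0.08) and fell in SUM159 from 31.03 and 34.4 to 7.93 and 7.42 CPM and in BT549 from 168 and 163 to 20.5 and 20.4. NLRC5, the transactivator of MHC class I genes, rose in MDA-MB-231 from 18.5 and 18.9 to 31.9 and 33.1 CPM and in SUM159 (0.26 ± 0.07), where the immunoproteasome genes fell, and it fell in BT549 from 71.0 and 67.2 to 5.70 and 4.59 CPM. Of the 8 genes counted on this list, 3 rose and 0 fell in MDA-MB-231, 1 rose and 5 fell in SUM159, and 7 fell and 0 rose in BT549, where the median was -1.83 on the log2 scale. Of all genes tested, 21.2% rose and 16.5% fell in the first comparison, 28.6% and 31.4% in SUM159, and 35.6% and 35.0% in BT549. IFNGR2 was the gene that did not pass in BT549 (-0.13 ± 0.08).

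Factors that work with the proteasome without carrying its name were counted as a last list of 18, which holds ubiquitin receptors, deubiquitinases, shuttle factors and the regulators of proteasome transcription. In MDA-MB-231 10 rose and 2 fell, in SUM159 4 rose and 10 fell, and in BT549 4 rose and 10 fell, against 21.2% and 16.5%, 28.6% and 31.4%, and 35.6% and 35.0% of all genes in the same order. NFE2L1, the factor that drives transcription of proteasome genes when degradation is short, rose in MDA-MB-231 from 242 and 233 to 321 and 310.3 CPM. It fell in SUM159 from 349.9 and 356 to 127 and 128 (-1.47 ± 0.03) and in BT549 from 345 and 334 to 144 and 145 (-1.23 ± 0.03), the largest fall on this list in both lines. The difference of its knockdown effects, 1.88 ± 0.05, exceeded that of every member. SEM1, a small subunit of the lid with no PSM symbol, fell in MDA-MB-231 from 74.8 and 69.0 to 47.6 and 48.6 CPM, and rose in BT549 from 58.3 and 60.5 to 123 and 121.

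Some values are less certain than their errors show. Of the 49 members, 31 overlap another annotated gene, 27 of them on the opposite strand, and reads of such partners may not have been kept apart. Some members have processed pseudogene copies, and how reads shared with them were assigned is not given in the sources used here. PSMD12, PSME4 and PSMG1 had different leading transcripts in different groups, and for PSMA4 the leading transcript carried no defined coding sequence.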

How the data were processed

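Polysome-associated RNA of 3 established cell lines was sequenced in 12 libraries, and groups were taken from the labels. The study's methods describe trimming (Trimmomatic), alignment to GRCh38 (HISAT2) and duplicate removal (SAMtools). Which counter, annotation and strand setting were used is not given in the sources used here, and the methods name a stranded rRNA-depleted kit where the labels name poly(A) enrichment. The deposited values are expected counts, 1 row for each Ensembl transcript, without normalization. The 8 MDA-MB-231 and SUM159 columns also hold a missing mark in 5.08% of rows, taken as 0. These rows hold 0.121% of the BT549 counts, and a transcript at 0 in all BT549 libraries has no row.

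Transcripts were matched without version to GENCODE 44 (79.6%, holding 99.25% to 99.41% of the counts), summed per symbol and rounded to whole numbers. After filterByExpr, edgeR 4.0.16 (R 4.3.3) applied TMM factors and its quasi-likelihood test to all 6 groups at once, which leaves 6 residual degrees of freedom. Genes were called at a Benjamini-Hochberg adjusted p under 0.05 over 16538 genes. The common dispersion was 0.000835. CPM was used within genes and TPM, computed from GENCODE 44 transcript lengths, between genes. Intervals cover 95%. On simulated counts with 200 genes changed by 1 on the log2 scale among 16019 genes, the test recovered 100% in each of the 3 comparisons, and 2.91%, 2.44% and 5.66% of its calls were of genes not changed. The median absolute change of the members was 0.17, 0.41 and 0.49, and far more genes were called in the data. The simulation therefore says nothing about changes below 1 or about scaling when many genes change. The median absolute log2 difference between libraries of a group was 0.0809 to 0.0991.

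The members and lists were chosen with earlier results of these data known. Genes named with values are the 5 immunoproteasome genes and PSMB5, PSMB6 and PSMB7, the 2 called members with the largest change per direction, role and comparison (mean of at least 50 counts), those called alike in all comparisons, the 6 with the largest opposite knockdown effects, TRMT112 and genes of the 3 lists of non-members. A gene of the interferon list is not reported here and was left out of its counts. Others were named after their values were seen. The alternatives tried were a replicate block, DESeq2 1.42.0, scaling by library size only or by RLE size factors, leaving the filter off or raising it to a mean of 50 counts, each line fitted alone, marked transcripts left out, protein-coding transcripts only, a log2 fold change of at least 1, plain counts for pair shares, and each library left out, which leaves a lone library assumed to vary like the other groups. Python 3.11.15 with pandas 2.3.3 prepared the tables.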

Additional observations from a re-analysis of the deposited data

Results flagged for a closer look

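The effect of TRMT112 knockdown differed between MDA-MB-231 and SUM159 for most proteasome genes by the test of the difference itself in edgeR. The difference passed for 35 members with the higher effect in MDA-MB-231 and for 9 with the higher effect in SUM159. The shares of all genes tested were 27.7% and 23.2%. Among the immunoproteasome genes the differences, MDA-MB-231 minus SUM159 on the log2 scale, were 1.04 for PSMB8, 0.98 for PSMB9, 1.39 for PSMB10, 0.93 for PSME1 and 0.87 for PSME2. For PSMB7 it was 0.22, while the differences of PSMB5 and PSMB6 did not pass (0.08 ± 0.05 and 0.02 ± 0.06, SE). Both lines carry the same kind of knockdown vector, TRMT112 fell by 1.23 on the log2 scale in MDA-MB-231 and by 0.76 in SUM159, and the part of that difference in the proteasome results was not tested.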

How the results depend on the processing

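The 5 immunoproteasome genes kept their direction and passed the test in each of the 3 comparisons under all 13 alternative fits. Those fits do not include the added threshold of a log2 fold change of at least 1. With that threshold the 5 genes passed in BT549 only, since their changes reached at most 0.66 in MDA-MB-231 and -0.76 in SUM159. For PSMB8 the log2 fold changes ranged from 0.20 to 0.35 in MDA-MB-231, from -0.79 to -0.70 in SUM159 and from -3.57 to -3.35 in BT549. With library size only, members that rose in MDA-MB-231 numbered 20 in place of 31, and the median log2 fold change of all genes moved from 0 to -0.08. With a log2 fold change of at least 1, members that rose and fell numbered 0 and 0 in MDA-MB-231, 0 and 2 in SUM159, and 1 and 9 in BT549. The shares of all genes at that threshold were not counted. In the same order of lines, the median absolute log2 change was 0.23, 0.46 and 0.70 over all genes tested. Over the members it was 0.17, 0.41 and 0.49. With 1 library left out, members that fell in MDA-MB-231 numbered from 4 to 9. PSMB7 in SUM159, at -0.00, was 0.05 with RLE size factors and with DESeq2 (0.0507 and 0.0505), 0.0215 with a mean of at least 50 counts, 0.0059 with the line fitted alone and 0.0257 with protein-coding transcripts only, and ranged from -0.0456 to 0.0322 with 1 library left out; it passed the test in none of these. In BT549 the share of PSMB8, PSMB9 and PSMB10 in their pairs changed by -39.1, -45.3 and -0.13 percentage points with plain counts, in place of -37.8, -40.8 and 0.63, and the share of PSMB10 by -1.51 with protein-coding transcripts only. Same-numbered libraries did not deviate together (correlations from -0.03 to 0.02), so the numbers were not taken as pairs. With the replicate block 31 members rose and 9 fell in MDA-MB-231, as without it. A count of 0 allows up to 3 counts per library.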
